A study of Mus musculus with 6 samples.

Results

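The genes described here encode the vacuolar proton pump (V-ATPase) and the signalling proteins that sit on the lysosome surface and control the kinase complex mTORC1. They were taken by symbol: every gene starting with Atp6v or Atp6ap, and Lamtor1 to Lamtor5, Rraga, Rragc, Rragd, Flcn, Fnip1, Fnip2, Mtor, Rptor, Rheb, Tsc1, Tsc2, Tfeb, Tfe3 and Mitf. This gave 45 of the 24062 genes in the table, 26 pump genes and 19 signalling genes. RNA was sequenced from mouse embryonic fibroblasts (connective tissue cells grown from embryos) of strain C57BL/6, in 2 groups of 3 libraries at day 10. The p27OE cells had received p27, a brake on the cell cycle whose gene is Cdkn1b, by lentivirus. The other group is labelled EV control, an abbreviation the labels do not spell out. The p27OE titles and the treatment protocol speak of senescent cells and the series design text of non-senescent ones, so the groups are compared by name only. Nothing in the labels ties the libraries of a group to separate embryos, cultures or transductions. The p-values therefore cover the spread among these samples alone, part of which may be technical. Y-linked transcripts differed within both groups (values below), so the libraries of a group are not all repeats of the same RNA sample. Pairs within a group were also compared by a chi-square per gene, larger where counts differ more than library size gives. EV control 2 and 3 were the most alike, with a median of 1.44, where the other pairs had 4.19 to 13.3. These 2 libraries may therefore count for less than 2 independent samples. A dataset tag appears in the titles of EV control but not of p27OE, and whether both groups were made side by side is not stated.

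The V-ATPase pumps protons into lysosomes and other compartments. Its cytosolic V1 sector hydrolyses ATP, and its membrane-embedded V0 sector carries the protons. When amino acids are plentiful, the pump and the Ragulator complex (encoded by Lamtor1 to Lamtor5) activate the Rag GTPases, which bring mTORC1 to the lysosome, where the GTPase Rheb switches it on. mTORC1 in turn keeps the transcription factors TFEB, TFE3 and MITF in the cytoplasm, and these factors, when nuclear, activate lysosomal genes, those of pump subunits included.

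Library totals ran from 39183624 to 61219345 counts, and the members held 0.208% to 0.27% of them. Cdkn1b was at 31.5 to 43.9 CPM (counts scaled to a library of 1e6 with TMM factors) in EV control and at 167 to 337 CPM in p27OE (edgeR adjusted p = 0.028, log2 difference 2.77 ± 0.29, SE). All 11 fibroblast markers were tested, with a summed level of 41211 to 59417 CPM. Of 18 macrophage markers, 16 were tested, all 16 below 0 and 0 called; their summed level was 114 CPM in EV control 1 and 20.2 to 39.1 CPM in the other 5 libraries. Y-linked transcripts (Ddx3y, Eif2s3y, Kdm5d and Uty) also differed within the groups. They summed to 0.125, 126 and 124 CPM in EV control 1, 2 and 3 and to 1.95, 57.1 and 137 CPM in p27OE 1, 2 and 3. This level enters a second model below.

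Pump subunit transcripts stood slightly higher in p27OE cells, by 1.15- to 1.4-fold for the 13 V1 and V0 genes with a mean of at least 10 CPM, and none of these differences passed. Of the 45 members, 37 had enough counts to be tested, and 0 passed at an adjusted p under 0.05 in edgeR's quasi-likelihood test. Over all 13990 tested genes 2.61% passed, 1.77% higher and 0.843% lower. At an unadjusted p under 0.05 there were 16 members, all higher in p27OE, where 26% of all tested genes reached it in either direction and 13.1% in the higher direction. DESeq2 called 7 members, all higher, and 16.6% of all tested genes, 8.18% higher and 8.41% lower. limma-voom called 0 members, and 3% of all tested genes, 2.04% higher and 0.958% lower. The groups did not overlap for 20 of the 37 tested members, 19 higher and 1 lower in p27OE; of all tested genes this held for 33.3%, 16.8% in the higher and 16.5% in the lower direction. The log2 fold change lay above 0 in 31 of 37 members and in 51.8% of all tested genes, with medians of 0.24 and 0.01. In the model that also holds the Y-linked level, 20 members rose and 0 fell, where 34% of all tested genes were called, 18% higher and 16% lower. In bulk RNA a change in level per cell and a change in the share of a cell type cannot be told apart.

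**Figure D1:**
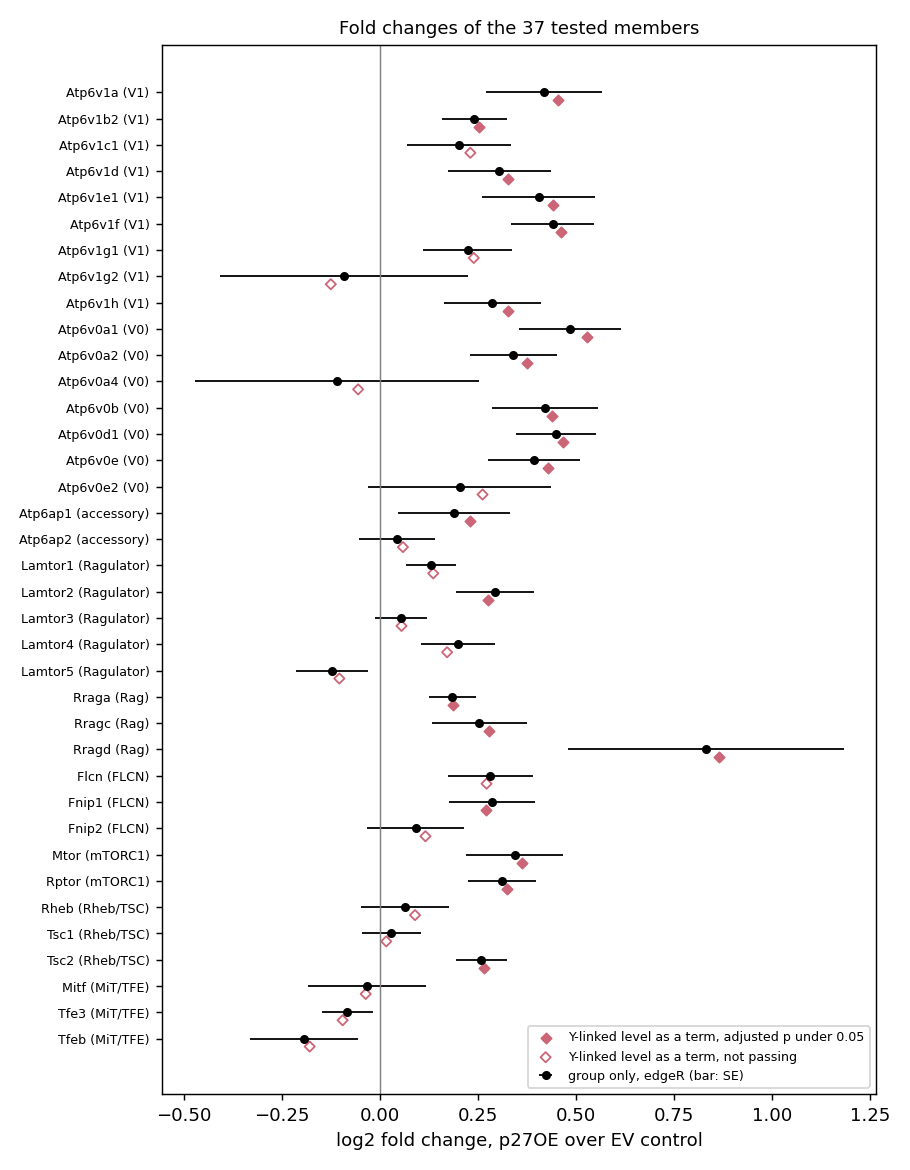
Log2 fold change of p27OE over EV control for the 37 tested members (black points, bars are SE, edgeR with group only), with the value from the model that also holds the Y-linked level (diamonds, filled where the adjusted p was under 0.05). 31 of the 37 black points lie above 0 and none passed; 20 diamonds are filled, all above 0.

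Among V1 genes, 8 of 9 tested lay above 0, with a median log2 fold change of 0.29. Atp6v1f, which encodes the small F subunit of the central stalk, had the smallest p of the sector. It was at 41.5, 43.5 and 42.1 CPM in the EV control libraries and 51.2, 55 and 66.3 CPM in the p27OE libraries. Every p27OE library lay above every EV control library, and p27OE 3 was the highest. The fold change was 1.36 (95% interval 1.14 to 1.62; edgeR adjusted p = 0.0706), and 11.2% of the 50-base words of its transcripts also occur in another annotated gene. Atp6v1a encodes the catalytic A subunit that binds ATP. It was at 93.8, 109.9 and 106 CPM in the EV control libraries and 115, 132 and 167 CPM in the p27OE libraries, without overlap. Its fold change was 1.34 (95% interval 1.04 to 1.71; edgeR adjusted p = 0.142). Atp6v1e1, for the E subunit of the outer stalk, showed the same order of libraries, with 59.98, 69.99 and 67.9 CPM in EV control against 74.1, 81.6 and 106 CPM in p27OE (fold change 1.32; edgeR adjusted p = 0.144). The most abundant V1 transcript per length was Atp6v1g1, for the G subunit, at 79.3 CPM per kb of exon in EV control. Of its 50-base words, 19.2% also occur in other annotated genes. Its libraries stood at 90.9, 93.4 and 85.8 CPM in EV control against 90.7, 104 and 121 CPM in p27OE, so the groups overlapped through p27OE 1 (fold change 1.17, 95% interval 0.966 to 1.41). The remaining V1 genes of at least 10 CPM were Atp6v1b2, Atp6v1c1, Atp6v1d and Atp6v1h, with fold changes of 1.18, 1.15, 1.23 and 1.22. Atp6v1c1, for the C subunit that links the stalks, overlapped between groups; Atp6v1b2, Atp6v1d and Atp6v1h did not.

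Among V0 genes, 6 of 7 tested lay above 0, with a median log2 fold change of 0.39. Atp6v0d1, for the d subunit that couples the sectors, had the smallest p of all members and was the most abundant V0 transcript per length, at 44.7 CPM per kb of exon in EV control and 61 in p27OE. The 3 EV control libraries were close together at 78.6, 81 and 80.7 CPM, and the p27OE libraries spread over 97.9, 105 and 125 CPM. The groups did not overlap. The fold change was 1.36 (95% interval 1.15 to 1.61; edgeR adjusted p = 0.0664). Atp6v0a1, for the a1 isoform of the subunit through which protons pass, had the largest fold change of the tested pump genes, 1.4 (95% interval 1.12 to 1.74; edgeR adjusted p = 0.084). Levels were 42.9, 53.1 and 50.9 CPM in the EV control libraries and 58.8, 68.3 and 78.4 CPM in the p27OE libraries. Atp6v0b, for a proteolipid of the rotating ring, was at 61.8, 64.4 and 58.9 CPM in EV control against 70.6, 77 and 100.1 CPM in p27OE (fold change 1.34; edgeR adjusted p = 0.116). Atp6v0e, for the small e subunit, was at 67.3, 78.7 and 76.9 CPM in EV control against 87.8, 92.1 and 113 CPM in p27OE (fold change 1.31; edgeR adjusted p = 0.0999). Atp6v0a2, for the a2 isoform, was at 85.7, 97.6 and 101 CPM in EV control against 107, 119 and 135 CPM in p27OE (fold change 1.27; edgeR adjusted p = 0.121). In each of these 5 genes the groups did not overlap and p27OE 3 was the highest library. Of all tested genes 16.8% lay without overlap in the higher direction, and 3695 of 13990 were highest in p27OE 3. An annotated gene on the other strand covers 9.86% of the exon bases of Atp6v0a2 and 11.8% of those of Atp6v0b, and the strand setting is unknown, so their counts are less certain.

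The size of the pump difference varied between libraries of one group. Summed over the 13 V1 and V0 genes of at least 10 CPM, the level was 831, 917 and 895 CPM in EV control 1, 2 and 3, and 988, 1080.5 and 1315 CPM in p27OE 1, 2 and 3. The groups did not overlap. In each group the library with the lowest sum also had the lowest Y-linked level, and the part of that level in the result was not tested. All 13 genes were highest in p27OE 3, as were 3695 of all 13990 tested genes. Between libraries of low Y-linked level, p27OE 1 minus EV control 1, the median difference of the 13 genes was 0.30 in log2 CPM with 12 above 0. Between libraries of high level, p27OE 3 minus the mean of EV control 2 and 3, it was 0.56 with 13 above 0. Without p27OE 3 the 13 log2 fold changes ran from 0.06 for Atp6v1c1 to 0.37 for Atp6v0a1.

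**Figure D2:**
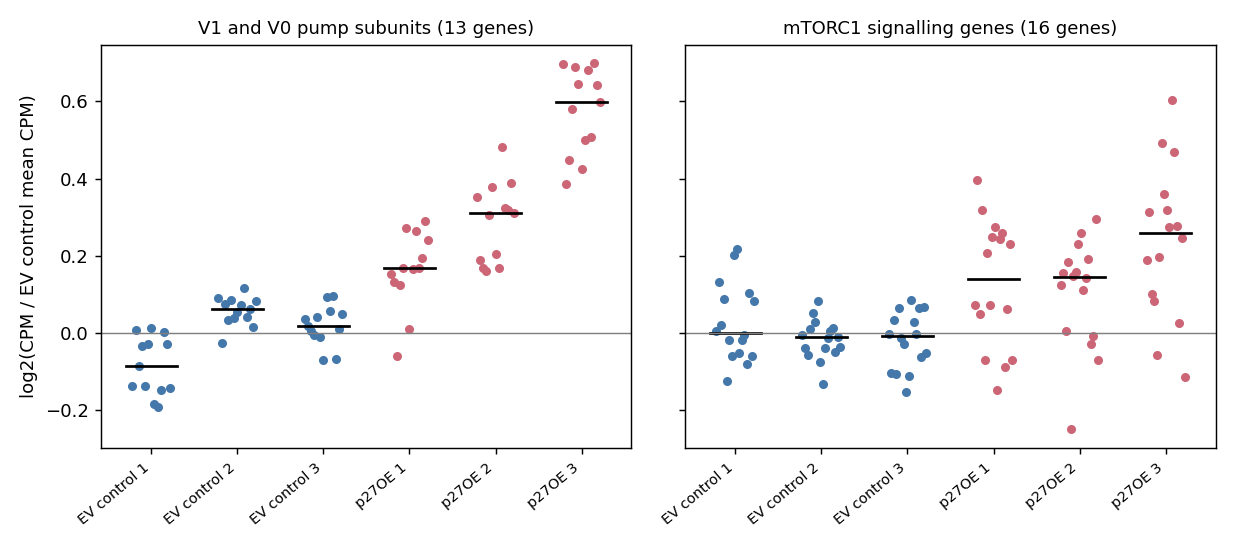
Each point is a gene in a library, as log2 of its CPM over the mean CPM of EV control, for pump subunits (left) and mTORC1 signalling genes (right), all with at least 10 CPM. Black lines are medians. All 13 pump subunits have their highest level in p27OE 3, as do 3695 of all 13990 tested genes.

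The accessory subunits differed less. Atp6ap1, which helps to assemble the pump, was the most abundant member per length, at 91.7 CPM per kb of exon in EV control and 105 in p27OE. It was at 247, 299 and 286 CPM in the EV control libraries and 268, 306 and 375 CPM in the p27OE libraries, with overlap (fold change 1.14, 95% interval 0.897 to 1.45; edgeR adjusted p = 0.457). Atp6ap2, the prorenin receptor, was at 50.7 to 62.7 CPM in all 6 libraries (fold change 1.03, 95% interval 0.876 to 1.21).

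Most pump subunits came from 1 isoform gene. By CPM per kb of exon, Atp6v1b2, Atp6v1c1, Atp6v0d1, Atp6v1e1 and Atp6v1g1 each made up at least 98.4% of their subunit in every library. Their partners Atp6v1b1 (typical of kidney and inner ear), Atp6v1c2, Atp6v0d2 (typical of osteoclasts), Atp6v1e2 (testis) and Atp6v1g3 (kidney) did not pass the filter on low counts. Atp6v0d2 had 0 to 14 counts per library and Atp6v1c2 had 4 to 13. Atp6v1e2 and Atp6v1g3 had 0 counts in all 6 libraries, Atp6v1b1 had at most 1 and Atp6ap1l at most 2. The neuronal Atp6v1g2 was tested, at 1.16 to 2.15 CPM, and the kidney isoform Atp6v0a4 at 0.346 to 0.721 CPM; their log2 fold changes were −0.09 ± 0.32 and −0.11 ± 0.36 (SE). Atp6v0e2 made up 6.1% to 8.1% of the e subunit. Atp6v0c, which encodes the main ring proteolipid of the pump, was listed at 0 counts in 4 libraries and 1 count in the other 2, and its pseudogene Atp6v0c-ps2 at 0. Of the 50-base words of Atp6v0c transcripts, 10.8% also occur in its annotated pseudogenes, and 90.1% of those of Atp6v0c-ps2 occur in other annotated genes. For a main pump subunit such counts are not read as its level, and their cause was not tested.

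The a subunit was the exception, with 3 isoforms that each made up a large share. In EV control Atp6v0a1, Atp6v0a2 and Tcirg1 were at 7.47, 14.1 and 13.5 CPM per kb of exon. Tcirg1 (the a3 isoform, named outside the Atp6 prefix and known from osteoclasts) was singled out after its values were seen. It was at 59.1, 65.1 and 61.7 CPM in the EV control libraries and 54.9, 61.3 and 63.4 CPM in the p27OE libraries, with overlap (log2 fold change −0.05 ± 0.08, SE). Its share of a-subunit CPM per kb was 39.8%, 38.3% and 36.9% in EV control and 32.4%, 32.1% and 30.00% in p27OE, a mean of 38.4% ± 1.48 against 31.5% ± 1.3 (SD, n = 3; two-sided exact permutation p = 0.1, the smallest that 3 against 3 allows). The share of Atp6v0a1 was 21.2% ± 0.842 and 25.2% ± 0.853, and that of Atp6v0a2 40.1% ± 1.17 and 43.1% ± 0.544 (SD, n = 3; exact permutation p = 0.1 for each). The groups did not overlap for any of the 3 shares. The shares are parts of the same total, so these results are not separate observations. The level of Tcirg1 itself overlapped, while Atp6v0a1 and Atp6v0a2 were higher in every p27OE library than in any EV control library. Macrophages and osteoclasts also express Tcirg1. The summed macrophage markers were at 114, 27 and 20.2 CPM in EV control and at 22.1, 32 and 39.1 CPM in p27OE. The summed osteoclast markers were at 147, 174 and 162 CPM in EV control and at 119, 141 and 157 CPM in p27OE, with overlap. Of the 11 osteoclast markers 7 were tested, 5 of them below 0, and 0 were called by edgeR and 2 by DESeq2, both lower. Of all tested genes edgeR called 2.61% and DESeq2 16.6%, with 0.843% and 8.41% lower. The 3 osteoclast markers of smallest p, Acp5, Mmp9 and Nfatc1, had log2 fold changes of −0.88 ± 0.19, −1.39 ± 0.40 and −0.66 ± 0.23 (SE). Ctsk, the most abundant of the list, and Oscar lay above 0, at 0.11 ± 0.12 and 0.31 ± 0.33 (log2 fold change, SE). The fusion gene Dcstamp was at 0. The part of either marker list in the a3 share was not tested.

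**Figure D3:**
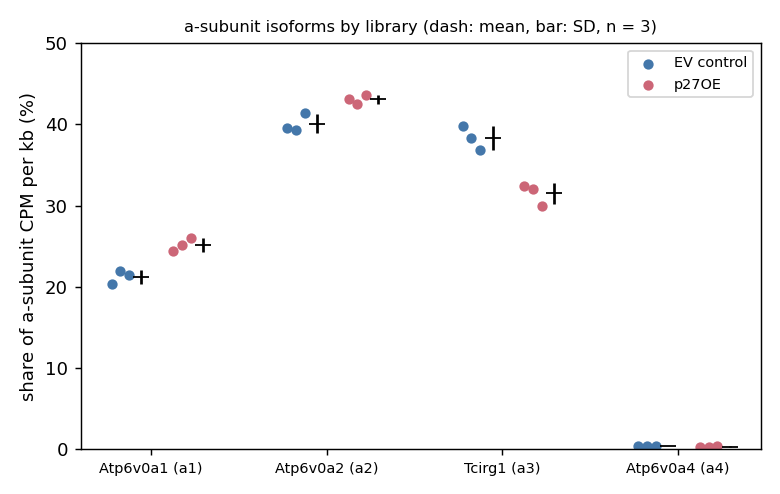
Share of each a-subunit isoform in the summed CPM per kb of exon of the 4 isoforms, per library (points), with mean and SD (n = 3). Tcirg1 (a3) lies lower in every p27OE library than in any EV control library, while Atp6v0a1 and Atp6v0a2 lie higher.

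Ragulator and Rag genes, which link the pump to mTORC1, had smaller median differences than the pump sectors. Of the 5 Ragulator genes 4 lay above 0, with a median log2 fold change of 0.13. Lamtor2 was at 34.6, 30.7 and 29.4 CPM in the EV control libraries and 41.5, 35.1 and 39.2 CPM in the p27OE libraries, without overlap, a fold change of 1.22 (95% interval 1.04 to 1.44; edgeR adjusted p = 0.127). Lamtor1, the lipid-anchored subunit that holds the complex on the membrane, stood at 101, 100.5 and 101 CPM in EV control against 106, 109.8 and 115 CPM in p27OE. Its groups were apart by a fold change of only 1.09 (95% interval 0.983 to 1.22), and 18.7% of its exon bases lie under an opposite-strand gene. Of its 50-base words, 25.6% also occur in other annotated genes. Lamtor5 was the most abundant Ragulator transcript per length, at 38.4 CPM per kb of exon in EV control, and shares 14.5% of its 50-base words with other annotated genes. It was the 1 member of the complex below 0, at 31.1, 35.2 and 35.5 CPM in EV control against 32.4, 28.6 and 32.7 CPM in p27OE, with overlap (log2 fold change −0.12 ± 0.09, SE). Lamtor3 and Lamtor4 had fold changes of 1.04 and 1.15, with overlap.

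Rraga was the most abundant Rag gene per length and tightly grouped, at 87.7, 90.6 and 88 CPM in EV control against 102, 98.3 and 102 CPM in p27OE. The groups did not overlap, and the fold change was 1.14 (95% interval 1.03 to 1.254; edgeR adjusted p = 0.118). Its relative Rragb, at 0.926 to 2.4 CPM, made up at most 1.65% of the pair per length. Rragc was at 97.3, 107 and 99.3 CPM in EV control against 107, 113 and 143 CPM in p27OE, with p27OE 1 just below EV control 2 (fold change 1.19; edgeR adjusted p = 0.248). Rragd, known as a target of TFEB and TFE3, had the largest fold change of the tested members, 1.78 (95% interval 0.991 to 3.19; edgeR adjusted p = 0.197), at a low level. The EV control libraries held 1.4, 1.67 and 1.29 CPM and the p27OE libraries 1.64, 2.28 and 3.87 CPM, from 56 to 161 counts per library. Its log2 difference was 0.23 between libraries of low Y-linked level and 1.37 between those of high level. When p27OE 3 was left out its log2 fold change was 0.43, against 0.83 with all libraries.

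The folliculin complex activates the RagC and RagD proteins, and its genes Flcn and Fnip1 followed another order of libraries than the pump. Flcn was at 34.8, 28.8 and 27.2 CPM in EV control against 36, 35.6 and 38.8 CPM in p27OE. Its partner Fnip1 was at 32.4, 25.4 and 25.8 CPM in EV control against 33.7, 33.3 and 34.7 CPM in p27OE. Neither overlapped, with EV control 1 close to the p27OE libraries and EV control 2 and 3 further below them. Their fold changes were 1.22 and 1.22 (edgeR adjusted p = 0.17 and 0.169). When EV control 1 was left out, Flcn and Fnip1 were the 2 members that passed, both higher (log2 fold changes 0.38 and 0.39; edgeR adjusted p = 0.0344 and 0.0268). In that fit 12.9% of all tested genes were called, 6.13% higher and 6.75% lower. Fnip2, the second partner, made up 29.2% to 38.8% of the Fnip pair per length and had a fold change of 1.06. It did not share that order, at 17.5, 17.6 and 19.2 CPM in EV control against 16.4, 19.6 and 21.9 CPM in p27OE, with overlap.

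The genes of the mTORC1 core differed in direction, and none passed. Mtor and Rptor were higher in every p27OE library than in any EV control library, and Mlst8 was lower, where 16.8% and 16.5% of all tested genes did the same. Mtor, which encodes the kinase, was at 50.7, 50.9 and 52.3 CPM in EV control against 60.7, 56.6 and 77.8 CPM in p27OE (fold change 1.27, 95% interval 1.03 to 1.56; edgeR adjusted p = 0.146). Rptor, which encodes the scaffold raptor, was at 42.7, 43 and 42.7 CPM in EV control against 51.3, 48.9 and 59.2 CPM in p27OE (fold change 1.24, 95% interval 1.07 to 1.43; edgeR adjusted p = 0.0887). DESeq2 called Rptor (adjusted p = 0.0357) but not Mtor (adjusted p = 0.108). Mlst8, for the third core subunit and taken from the list of mTORC1 partners after its values were seen, was at 22.5, 22.6 and 22.7 CPM in EV control against 21.4, 19.5 and 17 CPM in p27OE (log2 fold change −0.23 ± 0.10, SE; edgeR adjusted p = 0.22).

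Rheb, the GTPase that activates mTORC1, overlapped, at 102, 108 and 112 CPM in EV control against 101, 105 and 130.2 CPM in p27OE (fold change 1.04, 95% interval 0.867 to 1.26). It was the most abundant gene of its class per length, at 13.9 CPM per kb of exon in EV control. Tsc2, which encodes the part of the TSC complex that switches Rheb off, was at 76.5, 79 and 83.4 CPM in EV control against 93.4, 97.8 and 94.4 CPM in p27OE. The groups did not overlap, and p27OE 2 was the highest library (fold change 1.2, 95% interval 1.07 to 1.33; edgeR adjusted p = 0.0739; DESeq2 adjusted p = 0.0131). Of the exon bases of Tsc2, 7.2% lie under the opposite-strand gene Pkd1. Its partner Tsc1 had a fold change of 1.02 (95% interval 0.899 to 1.16).

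The MiT/TFE transcription factor genes were the 1 class with every tested member below 0, and none passed. Tfe3 was the most abundant, with 76.8% to 80.1% of the 4 factors per length. It was at 72.3, 66.5 and 65.7 CPM in EV control against 65, 64.9 and 63 CPM in p27OE, the 1 member whose groups did not overlap in the lower direction (fold change 0.943, 95% interval 0.846 to 1.05; edgeR adjusted p = 0.466). Tfeb, at 6.9, 8.22 and 7.51 CPM in EV control against 6.25, 7.38 and 6.15 CPM in p27OE, overlapped (fold change 0.874, 95% interval 0.695 to 1.1). Mitf had a log2 fold change of −0.03 ± 0.15 (SE) at 4.21 ± 0.364 CPM in EV control (SD, n = 3). The related gene Tfec was at 0 to 0.0721 CPM. Counts measure transcripts, and the location of these proteins, on which their activity depends, was not measured.

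**Figure D4:**
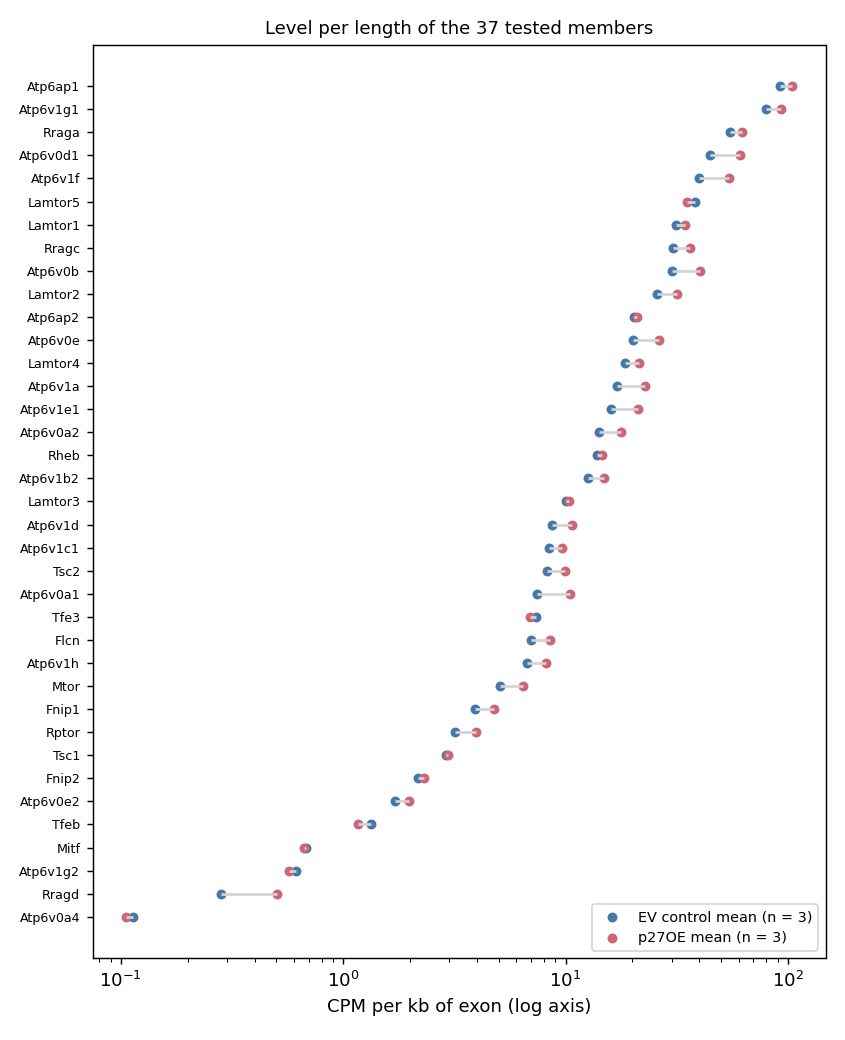
Mean CPM per kb of exon (log axis) of the 37 tested members in EV control (blue) and p27OE (red), 3 libraries each, ordered by the EV control level. Levels run from 0.114 for Atp6v0a4 to 91.7 for Atp6ap1 in EV control.

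MiT/TFE factors bind the E-box CACGTG, which lies at the core of the CLEAR element of lysosomal genes. Promoters (250 bases before to 50 after the start, RefSeq, GRCm38.p6) were on hand for 36 members, 31 of them tested. The letters CACGTG occur in 9 of these 31 (29%), against 11.6% of the 10416 tested genes with a promoter. The letters TCACGTGA, which contain CACGTG, occur in 3 of the 31 (9.68%) against 2.11%. The same letters with G before and C after, the palindromic CLEAR consensus, occur in 0 against 0.797%. These palindromes read the same on both strands. A match is a description of the letters and not a site, and no match says only that the letters are not in this window. All 9 promoters are shown as windows of 100 bases, 5′ to 3′ along the gene, so that the flanks of the E-box can be compared across the pump, Ragulator, Rag, folliculin and Rheb genes. Capitals mark TCACGTGA in the first 3 and CACGTG in the others.
Atp6v1a, chr16:44139338-44139437, minus strand: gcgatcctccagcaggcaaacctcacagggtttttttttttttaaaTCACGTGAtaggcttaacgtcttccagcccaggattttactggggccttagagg
Atp6v0d1, chr8:105566035-105566134, minus strand: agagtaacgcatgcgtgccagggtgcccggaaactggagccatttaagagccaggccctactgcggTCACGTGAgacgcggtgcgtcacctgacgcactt
Atp6v0e, chr17:26676326-26676425, plus strand: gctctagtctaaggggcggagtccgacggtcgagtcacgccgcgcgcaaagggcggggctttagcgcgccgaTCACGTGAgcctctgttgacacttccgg
Atp6v0b, chr4:117887313-117887412, minus strand: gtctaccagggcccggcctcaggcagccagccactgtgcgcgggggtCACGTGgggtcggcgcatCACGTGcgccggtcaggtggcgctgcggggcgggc
Lamtor1, chr7:101905722-101905821, plus strand: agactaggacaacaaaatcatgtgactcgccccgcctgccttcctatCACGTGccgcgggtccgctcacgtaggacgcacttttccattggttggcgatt
Lamtor4, chr5:138255315-138255414, plus strand: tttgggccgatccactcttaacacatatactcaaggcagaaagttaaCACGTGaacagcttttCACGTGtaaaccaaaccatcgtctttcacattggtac
Rragc, chr4:123917274-123917373, plus strand: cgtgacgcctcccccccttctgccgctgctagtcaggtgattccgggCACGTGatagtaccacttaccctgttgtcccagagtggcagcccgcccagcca
Fnip1, chr11:54438057-54438156, plus strand: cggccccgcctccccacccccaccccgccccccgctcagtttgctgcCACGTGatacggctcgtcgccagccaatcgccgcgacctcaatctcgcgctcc
Rheb, chr5:24842405-24842504, minus strand: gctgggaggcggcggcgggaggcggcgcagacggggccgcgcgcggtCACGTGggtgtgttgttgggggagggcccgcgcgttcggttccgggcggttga

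The 3 promoters with TCACGTGA belong to pump genes, and the E-boxes of Atp6v0d1 and Atp6v0e lie within 4 bases of the start. Atp6v0b and Lamtor4 hold the E-box 2 times. The median log2 fold change was 0.28 for the 9 tested members with CACGTG and 0.20 for those with a promoter but without it, given as a description. Atp6v0a1, with the largest fold change of the tested pump genes, and Rragd, with the largest of the tested members, have no CACGTG in this window.

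Genes that work with the members were taken from 4 lists. Of 18 tested pump partners (the a3 subunit, assembly factors, TLDc proteins and lysosomal channels) 16 lay above 0 with a median log2 fold change of 0.20. Over all tested genes 1.77% rose in edgeR, and 2 of these partners did. These were the TLDc protein genes Oxr1, at 41.4 ± 3.15 and 59.6 ± 3.96 CPM in EV control and p27OE (SD, n = 3; edgeR adjusted p = 0.043), and Tldc1, at 12.2 ± 0.734 and 18.1 ± 1.02 CPM (SD, n = 3; edgeR adjusted p = 0.0437). Another TLDc gene of the list, Ncoa7, named after its values were seen, lay in the other direction without overlap, at 15.6, 15.5 and 14.8 CPM in EV control against 12.9, 12.2 and 11.3 CPM in p27OE (log2 fold change −0.33 ± 0.09, SE; edgeR adjusted p = 0.0879). Mcoln1, the calcium channel of the lysosome, had a log2 fold change of 0.39 ± 0.08 (SE) without passing. Of 25 tested amino acid sensing genes upstream of mTORC1 (such as GATOR and KICSTOR genes), 15 lay above 0, with a median of 0.07, and 0 passed. Of these, 9 had an unadjusted p under 0.05 in edgeR, 4 of them higher; DESeq2 called 5 and limma-voom 0. Over all tested genes the shares were 26%, 16.6% and 3%, so these counts lie near the background. Gatsl3, an arginine sensor gene of the CASTOR family, was at 0.51 ± 0.10, and the GATOR2 gene Seh1l and the KICSTOR gene Itfg2 were at −0.34 ± 0.07 and −0.36 ± 0.09 (log2 fold change, SE).

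Of 33 tested partners, regulators and outputs of mTORC1, 13 lay above 0 and 20 below, with a median of −0.07. Over all tested genes 1.77% rose in edgeR, and 1 of the 33 did. This was Lpin1, a phosphatidate phosphatase and mTORC1 substrate, at 9.42 ± 0.589 CPM in EV control against 14.8 ± 0.8001 CPM in p27OE (SD, n = 3; edgeR adjusted p = 0.0394). Ddit4, a stress-induced inhibitor of mTORC1, was at 161, 139.9 and 116 CPM in EV control against 90.3, 90.9 and 71.4 CPM in p27OE, without overlap (log2 fold change −0.72 ± 0.15, SE; edgeR adjusted p = 0.0579). Eif4ebp1, which encodes a translation repressor, had a log2 fold change of −0.32 ± 0.08 (SE) without passing. Of 32 tested lysosome genes known as TFEB and TFE3 targets, 28 lay above 0 with a median of 0.32. Against the same share of 1.77%, 4 of the 32 rose. These were Gpnmb, Ctsd, Map1lc3b and Ctsf, with edgeR adjusted p = 0.0303, 0.0303, 0.045 and 0.0451. Gpnmb, a lysosomal membrane glycoprotein gene, was at 8.29 ± 1.1 CPM in EV control against 23.5 ± 4.71 CPM in p27OE. Ctsd, the protease cathepsin D, was at 487, 550.0 and 544 CPM in EV control against 934, 987 and 1233 CPM in p27OE. Mcoln1 and Clcn7 stand in both the pump partner list and this one. Leaving out EV control 2, EV control 3 or any of the p27OE libraries left 0 calls in each of the 4 lists. In each of those fits only 1 or 2 of all tested genes were called, so these counts lie near the background. Leaving out EV control 1 gave more calls: 12 TFEB and TFE3 targets and 4 pump partners rose, 4 mTORC1 partners rose and 2 fell, and 3 sensing genes rose and 1 fell. In that fit 6.13% of all tested genes rose and 6.75% fell. With all libraries DESeq2 called 16 TFEB and TFE3 targets and 6 pump partners higher, and 0 and 1 lower. It called 5 mTORC1 partners higher and 3 lower. Of all tested genes DESeq2 called 8.18% higher and 8.41% lower.

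Over the 37 tested members, 27 lay above 0 between the libraries of low Y-linked level and 34 between those of high level, with medians of 0.12 and 0.41 in log2 CPM. Over all 13990 tested genes 6958 lay above 0 at low level and 7303 at high level, with medians of −0.002 and 0.03. Each difference rests on 1 p27OE library and has no replicate check. The low-level difference also rests on EV control 1 alone, the library with 114 CPM of summed macrophage markers. Tsc2, Rraga and Lamtor4, above 0 in both, differed more at low level than at high level, at 0.29, 0.22 and 0.23 against 0.22, 0.19 and 0.13. Atp6v0b, also above 0 in both, differed more at high level, at 0.19 and 0.70. Atp6v1g2, Atp6v0a4, Mitf and Tfe3 lay below 0 at low level, at −0.69, −0.55, −0.19 and −0.15. At high level they were at 0.05, 0.29, 0.05 and −0.07. Only p27OE 3 stood at the high level in its group, so that level and that library cannot be told apart.

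**Figure D5:**
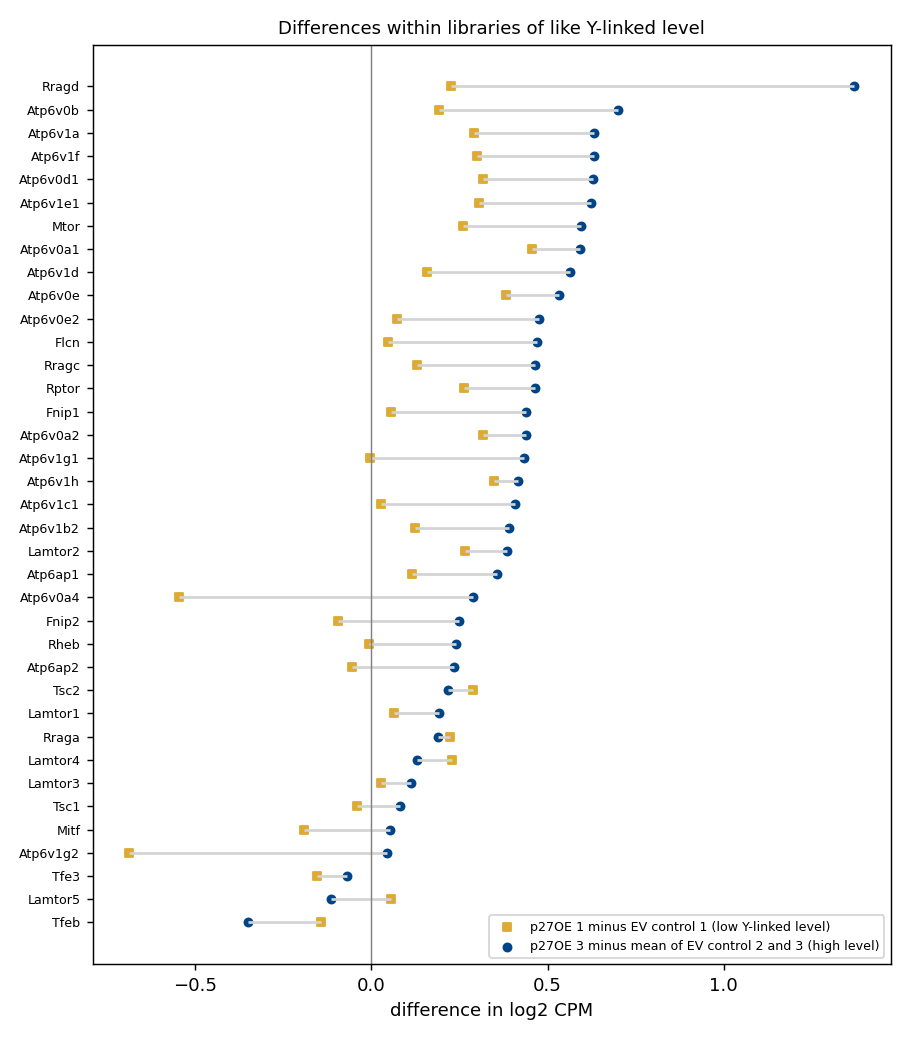
Difference in log2 CPM for each tested member between p27OE 1 and EV control 1 (squares, low Y-linked level) and between p27OE 3 and the mean of EV control 2 and 3 (circles, high level). 27 squares and 34 circles of 37 lie above 0; each rests on 1 p27OE library.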

How the data were processed

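The deposited table holds raw read counts for each gene symbol, as whole numbers. The submitters' processing notes name TopHat2 2.0.14, Bowtie2 2.2.6, Subread and featureCounts 1.4.6, and the genome mm10; not given in the sources used here are annotation, strand setting and filters. Per the labels' protocols, the kit was TruSeq RNA Library Prep Kit v2.

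The members and lists, and the use of the Y-linked level, were chosen with earlier results of these data known. The whole table was filtered with filterByExpr, scaled by TMM and tested with edgeR 4.0.16 (glmQLFit, robust, glmQLFTest, two-sided; R 4.3.3) on group alone. Benjamini-Hochberg adjustment ran over all 13990 genes tested. Standard errors and 95% intervals come from that model. For log2 CPM a prior count of 2 was added. Levels per length divide CPM by all annotated exon bases of a gene (GENCODE, GRCm38, the assembly of mm10; 45 of 45 members matched by symbol), which understates genes with long rare isoforms. Words of 50 bases were compared across annotated transcripts.

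Full values are given for the member of smallest p and of highest level per length in each class, and for those without overlap between groups and a log2 fold change of at least 0.32 in size; a few others were added after their values were seen. From each list the 3 genes of smallest p are named, with any that passed. Alternatives were other scalings and filters, DESeq2 1.42.0, limma-voom (limma 3.58.1), a term for the Y-linked level, the replicate number as a block, and libraries left out. The fit was also run on simulated counts, drawn for each gene on its own. These hold no differences shared by many genes between libraries of a group, so they cannot show how such differences affect the calls.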

Additional observations from a re-analysis of the deposited data

How the results depend on the processing

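The 0 called members became 1 (Atp6v0d1) with total counts in place of TMM factors, 20 with a term for the Y-linked level, 7 with DESeq2 and 5 when EV control 1 and p27OE 1 were both left out (Atp6v1f, Atp6v0a1, Atp6v0d1, Flcn and Fnip1). Leaving out each library in turn gave 0 to 2, the 2 without EV control 1. RLE and upper-quartile scaling, no filter, the stricter filter (1 CPM in 3 libraries) and limma-voom gave 0. With the replicate number as a block, 8 members were called, all higher; the deviations of libraries with the same number had correlations of 0.67, 0.04 and 0.50, and those of EV control 2 were closest to p27OE 3 (0.56), so no pairing was assumed. All genes called were 365, against 4761 with the Y-linked term, 2410 with the block, 2321 with DESeq2, 2334 without both of those libraries, 1827 without EV control 1 and 1 or 2 without any other library. The causes were not tested. The number of all genes called with total counts is not given here, so the call of Atp6v0d1 has no background beside it.

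The median log2 fold change of the members stayed between 0.16 (without p27OE 3) and 0.28 (without p27OE 1) over the alternatives run. No called value turned its direction; 11 of 591 values did so without a call, in 8 members with a log2 fold change of at most 0.20 in size. Low counts limit Rragd, Atp6v0a4 and Atp6v1g2.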
